A study of Mus musculus with 8 samples.

Results

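Integrins and laminins are the receptors and the matrix through which epithelial cells hold to a basement membrane. The genes described here are those whose symbol names an integrin alpha chain, an integrin beta chain or a laminin chain, and which are read by at least 1 probe set carrying that symbol alone. They number 34 of the 18193 genes named in this way on the array, 16 alpha integrins, 8 beta integrins and 10 laminin chains, read by 73 probe sets. Itga11 and Itgad, which carry symbols of the same form, are not analysed here.

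An integrin is a pair of an alpha and a beta chain that spans the membrane, binds matrix or another cell outside, and is coupled to the cytoskeleton by adaptors such as talin inside. A laminin is a trimer of an alpha, a beta and a gamma chain that polymerises into the basement membrane and is bound by integrins holding Itga3, Itga6 or Itga7. In fetal liver, cells of the hepatoblast layer meet laminin mainly around the portal veins, where bile duct cells form, whereas the matrix of the sinusoids of the adult liver holds little of it.

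The study compared 4 arrays labelled Bmi1 with 4 arrays labelled Control, each numbered 1 to 4. All 8 came from hepatoblasts of Ink4a-Arf-null mouse embryos of day 14.5, selected for surface Dlk with magnetic beads, grown on collagen IV in medium holding the growth factors HGF (50 ng/ml) and EGF (20 ng/ml), and purified by flow cytometry on day 28 of culture. The Bmi1 group had been transduced with Bmi1, a subunit of Polycomb repressive complex 1, and the Control group with EGFP, so both groups lack the Ink4a-Arf locus. The cells were plated on a purified matrix protein with added growth factors, and the sources used here do not name the vector or the promoter behind either transgene. The labels also give a preincubation of 12 to 18 hours for all 8. RNA equal to 10000 cells was amplified for each array, and the series describes 4 independent experiments.

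Signal for Bmi1 itself was 318, 273, 328 and 197 on the arrays labelled Bmi1 (replicates 1 to 4), against 802, 395, 568 and 306 on those labelled Control. It was thus lower where the label names the introduced gene, in 4 of 4 pairs, as was the second Bmi1 probe set. The log2 difference was -0.89, with a limma adjusted p of 0.0248 with the replicate number as a block and 0.461 without. Whether these probe sets read the introduced sequence is not known here, so the labels could not be checked by them, and directions below follow the labels. All 8 hepatoblast and hepatocyte markers on the array were in the tested set, 2 with a positive and 6 with a negative difference (median -0.15). The 2 of smallest p were Apoa1 (-0.51) and Dlk1 (0.80), which did not pass. Dlk1, the gene the cells were sorted on, read 1572, 1653, 3133 and 2609 on the Bmi1 arrays and 543, 1017, 1634 and 2103 on the Control arrays. Differences are on the log2 scale defined below, Bmi1 minus Control. The arrays were scaled by the authors to a trimmed mean of 100, background lay between 4.09 and 9.97 intensity units, and arrays of replicates 3 and 4 stood apart from those of replicates 1 and 2 in the hybridisation control BioC, whose 3′ probe set ranged from 97.0 to 274.

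Which of these genes the cells carried was read first against the background of each array, taken as the 95th percentile of 27 probe sets for Bacillus transcripts. On the brightest probe set of each gene, which stands for the gene below, signals were above it on all 8 arrays for 15 genes. They were Itga1, Itga2, Itga2b, Itga3, Itga5, Itga6, Itga7, Itgav, Itgb1, Itgb3, Itgb5, Lama5, Lamb1, Lamb2 and Lamc1. The other 19 genes passed it on 1 to 7 arrays. Itga3 and Itga6 encode the alpha chains of laminin receptors, Itgav that of receptors for vitronectin and latent TGF-beta, and Itgb1 and Itgb5 their partners. Among laminins the chains found on every array, Lama5, Lamb1, Lamb2 and Lamc1, are those of the broadly distributed epithelial laminins. The chains Lama3 and Lamb3, known from the hemidesmosomes of skin, were near background: Lama3 passed it on 1 array of each group and Lamb3 on 3 of each. Lamb3 read 1.77, 13.3, 6.26 and 10.9 on the Bmi1 arrays and 9.67, 20.2, 4.005 and 16.5 on the Control arrays, and the groups overlapped.

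**Figure D1:**
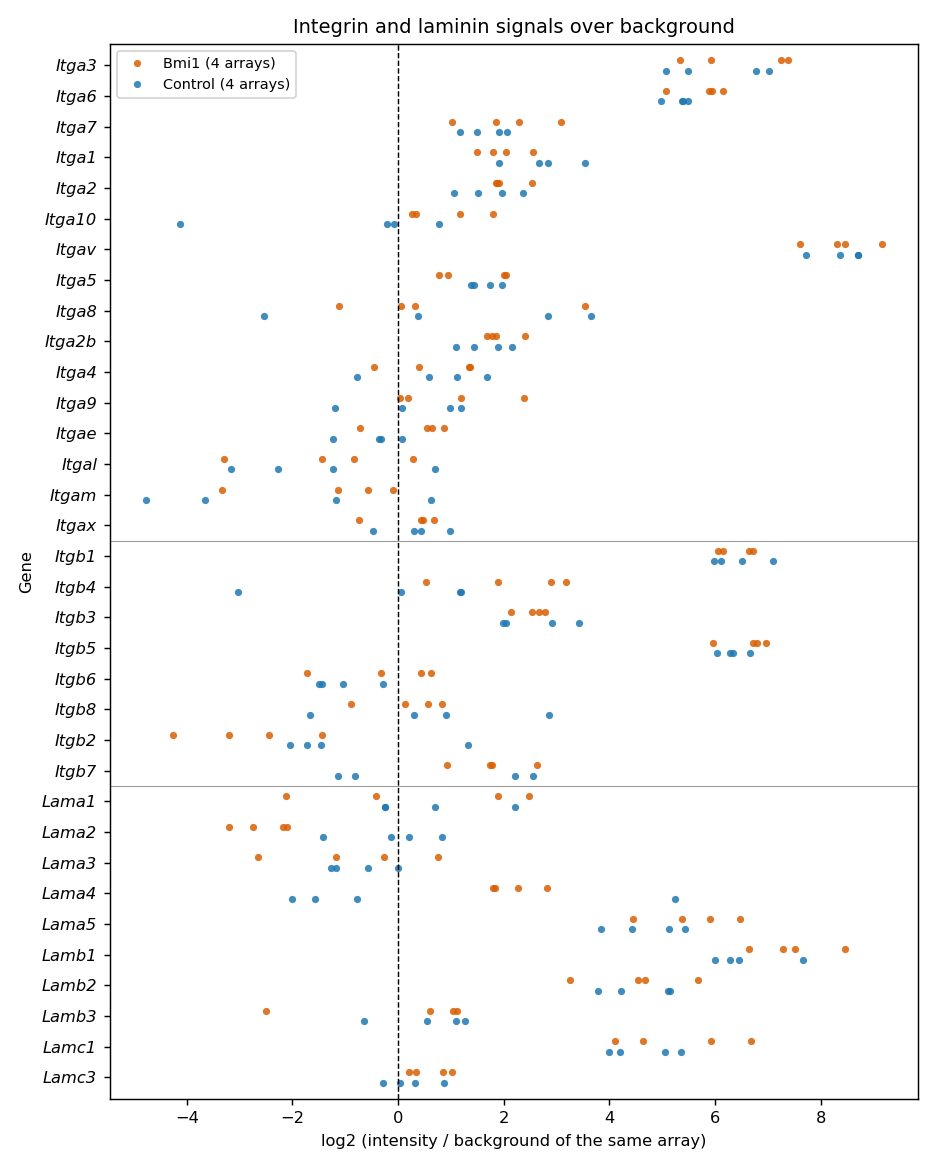
Signal of the 34 genes over the background of the same array, on a log2 scale, with 1 point per array, Bmi1 arrays above Control arrays in each row. The dashed line marks background. The 15 genes above it on every array include Itgav, Itgb1, Itgb5, Lama5 and Lamb1, while the leukocyte chains Itgal, Itgam and Itgb2 lie at or below it on most arrays; levels are to be compared along a row only, since each row is a different probe set.

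The groups were then compared by their labels. Values are differences of log2(intensity + 3.78), Bmi1 minus Control, so a positive one means higher in arrays labelled Bmi1, and differences of dim genes are understated. Of the 34 genes, 17 passed the filter on mean level and were tested, 8 alpha integrins, 4 beta integrins and 5 laminin chains. Without a block, limma called 0 of the 17 at an adjusted p under 0.05, against 0.165% of all 10916 tested genes (0.11% higher and 0.055% lower), and 2 of the 17 had an unadjusted p under 0.05, against 853 of all. With the replicate number as a block, which sets each Bmi1 array against the Control array of its number, it called 1, Itga1, against 3.33% of all tested genes (1.36% higher and 1.96% lower). Of the 17, 8 had a positive difference and 9 a negative one. Their median difference was -0.01, beside -0.03 for all tested genes, and over all 34 it was -0.08, beside -0.06 for all genes without the filter. For 12 of the 17 the 95% interval with the block lay within 1 log2 unit of no change. The groups did not overlap for 0 of the 17, against 5.33% of tested genes, and for 0 of the 34, against 4.52% of all genes.

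**Figure D2:**
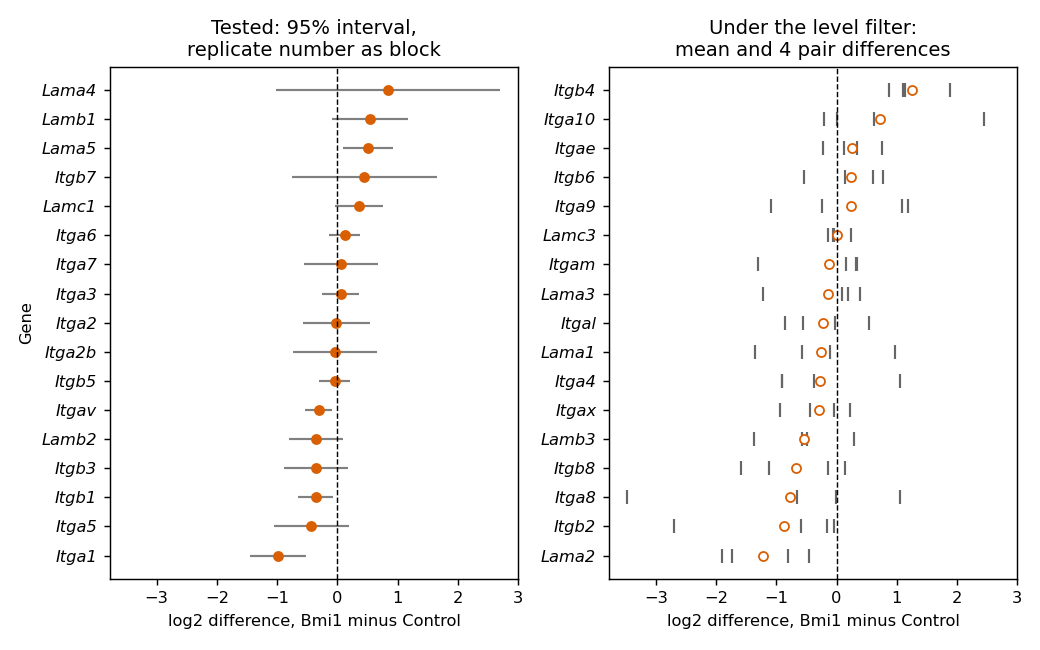
Differences of the 34 genes on the log2 scale, Bmi1 minus Control. In the left panel the 17 tested genes have points for the difference and lines for the 95% interval with the replicate number as a block; in the right panel the 17 genes under the level filter have open points for the mean and ticks for the 4 pairs. Itga1 at -0.98 is the lowest of the tested genes and Itgb4 at 1.25 the highest of the untested ones.

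Itga1, the alpha chain of a receptor for collagens IV and I on stellate, smooth muscle and endothelial cells and on some epithelia, fell with the block. Its signal was 34.7, 36.0, 16.9 and 15.1 on the Bmi1 arrays and 77.0, 67.5, 40.01 and 25.8 on the Control arrays. Each Bmi1 array lay below the Control array of its number, by 0.67 to 1.17 on the log2 scale, but the groups overlapped, since Bmi1 1 and 2 lay above Control 4. The difference was -0.98, with limma adjusted p = 0.0458 with the block (SE 0.20) and 0.611 without it (SE 0.42). The adjusted p with the block lay between 0.0810 and 0.168 when any of the 4 replicate numbers was left out, and at 0.0524 without centring, 0.0852 with centring on all probe sets and 0.0588 with quantile normalization. With replicates 1 and 2 against 3 and 4 as the block instead, the limma adjusted p was 0.0517. The second Itga1 probe set read at most 8.99 on any array.

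Markers of fibroblasts and stellate cells, which carry Itga1, had negative differences too, at 9 of 10 tested genes. The median of these markers was -1.03, beside -0.03 for all tested genes. By pair it was -3.36 in pair 1 and -0.25, -0.53 and -0.60 in pairs 2 to 4. Their summed signal ran from 1382 to 6257 on the Bmi1 arrays and from 2496 to 13262 on the Control arrays, and 0 of the 10 were at background on every array. With the block Acta2, the smooth muscle actin, fell (-1.11, adjusted p = 0.0397, and 0.778 without) and Reln, a secreted protein of stellate cells, rose (1.55, adjusted p = 0.00761, and 0.408 without). Their part in the Itga1 result was not tested. In bulk samples, fewer cells of a type and less RNA per cell cannot be told apart. The Itga1 difference with the block was -0.92 without replicate 1, whose Control array held the highest marker sum.

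Itga1 lies beside another collagen receptor gene, Itga2, on mouse chromosome 13 (GRCm38.p6; Itga1 at chr13:114958079-115101964 and Itga2 at chr13:114833081-114932100). Itga2 read 36.7, 22.2, 23.6 and 20.1 on the Bmi1 arrays and 26.1, 19.6, 32.5 and 19.4 on the Control arrays. Its difference was -0.01 with a 95% interval of -0.58 to 0.55 with the block (limma adjusted p = 0.983), and the difference between the 2 genes was not tested.

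Receptors that recognise the RGD sequence of vitronectin and fibronectin had negative differences at 3 of 3 tested alpha chains, and 0 passed the test. Itgav read 1956, 1950, 2332 and 1890 on the Bmi1 arrays and 2784, 1984, 2636 and 2243 on the Control arrays, lower in 4 of 4 pairs with overlapping groups (-0.31; limma adjusted p = 0.144 in the fit with the block, 0.635 in the other). A second Itgav probe set, on a lower signal, had a difference of -0.42 and was lower in 4 of 4 pairs as well. Itga5, the fibronectin receptor chain, read 17.1, 11.8, 16.5 and 22.1 on the Bmi1 arrays and 17.2, 25.6, 21.0 and 26.6 on the Control arrays, again lower in 4 of 4 pairs (-0.43, adjusted p = 0.446 with the block). Of the 17 tested genes 3 were lower and 2 higher in all 4 pairs, beside 15.9% and 11.4% of all tested genes, so these counts are near the background. Itga2b, the platelet chain, had a difference of -0.04 and was higher in 2 of 4 pairs, and platelet markers summed to 34.9 to 49.7 on the Bmi1 arrays and 31.8 to 52.1 on the Control arrays.

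The alpha chains of laminin receptors had differences of 0.06 to 0.12 on their brightest probe sets. Itga6, which pairs with Itgb1 or Itgb4 and marks hepatic progenitors and bile duct cells, read 334, 374, 291 and 317 on the Bmi1 arrays and 279, 297, 261 and 307 on the Control arrays. It was higher in 4 of 4 pairs by 0.02 to 0.25, with a difference of 0.12 and a 95% interval of -0.13 to 0.38 with the block (limma adjusted p = 0.609). The other Itga6 probe set had a difference of -0.18, so the direction depends on the probe set. Itga3 had a difference of 0.06 (95% interval -0.25 to 0.36). A second Itga3 probe set, above background on all 8 arrays, had a difference of -0.27 and was lower in 3 of 4 pairs, so its direction depends on the probe set as well. For Itga7, known from muscle, the difference was 0.06 (interval -0.55 to 0.67).

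Among beta chains, Itgb1, the partner of most of the alpha chains above, read 662, 641, 407 and 379 on the Bmi1 arrays and 909, 599, 569 and 473 on the Control arrays. It was lower in 3 of 4 pairs and higher by 0.01 in pair 2, with a difference of -0.36 (limma adjusted p = 0.187 in the fit with the block, 0.912 in the other). It was -0.15 without Control 1 and -0.09 with array weights. Other Itgb1 probe sets above the filter had differences of -0.28 and -0.35. Itgb5, a partner of Itgav, had a difference of -0.05 (95% interval -0.30 to 0.21), and Itgb3, the vitronectin receptor chain, of -0.36 (interval -0.89 to 0.17).

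Itgb4, the beta chain of hemidesmosomes and of bile duct epithelium, had the largest difference among the integrins and lay under the level filter. It read 14.4, 22.6, 36.8 and 39.6 on the Bmi1 arrays and 0.812, 9.78, 14.1 and 15.5 on the Control arrays, above background on 4 and 3 arrays. It was higher in 4 of 4 pairs, by 0.87 to 1.14 in pairs 2 to 4, while Control 1 was not above background and pair 1 gives only a bound. The groups overlapped only in that Bmi1 1 lay below Control 4. With no level filter, where every gene is tested, the difference was 1.27 with a limma adjusted p of 0.0885 in the fit with the block and of 0.584 in the other. With every probe set tested by itself the adjusted p with the block was 0.0589 (2.06% of probe sets called, 0.959% higher and 1.1% lower). With probe sets of a gene averaged it was 0.0302 (2.86% of genes called, 1.35% higher and 1.51% lower). In these last fits Itgb4 passed the filter on a mean that its Bmi1 arrays raise, so they are given as a description.

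Biliary markers were read beside it. All 4 tested genes of that list had a positive difference, with a median of 0.41. By pair the median was 0.91 in pair 1 and 0.25, 0.33 and 0.26 in pairs 2 to 4. Cftr, which lay under the filter, had a difference of -0.65 and was above background on 2 Control arrays and 0 Bmi1 arrays. Summed, the list read 2861, 3089, 2484 and 2514 on the Bmi1 arrays and 1453, 2457, 1795 and 2207 on the Control arrays. Among the Bmi1 arrays the sum was thus higher in replicates 1 and 2, where Itgb4 was lower. Epcam, a surface protein of hepatic progenitors and bile ducts, rose once the block was fitted (0.99; adjusted p from limma = 0.0220, against 0.171 in the fit that has no block). Their part in the Itgb4 values was not tested. Of the other hemidesmosome genes, Plec and Cd151 had differences of 0.07 and -0.26 and did not pass, and Col17a1 was at background on all 8 arrays.

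**Figure D3:**
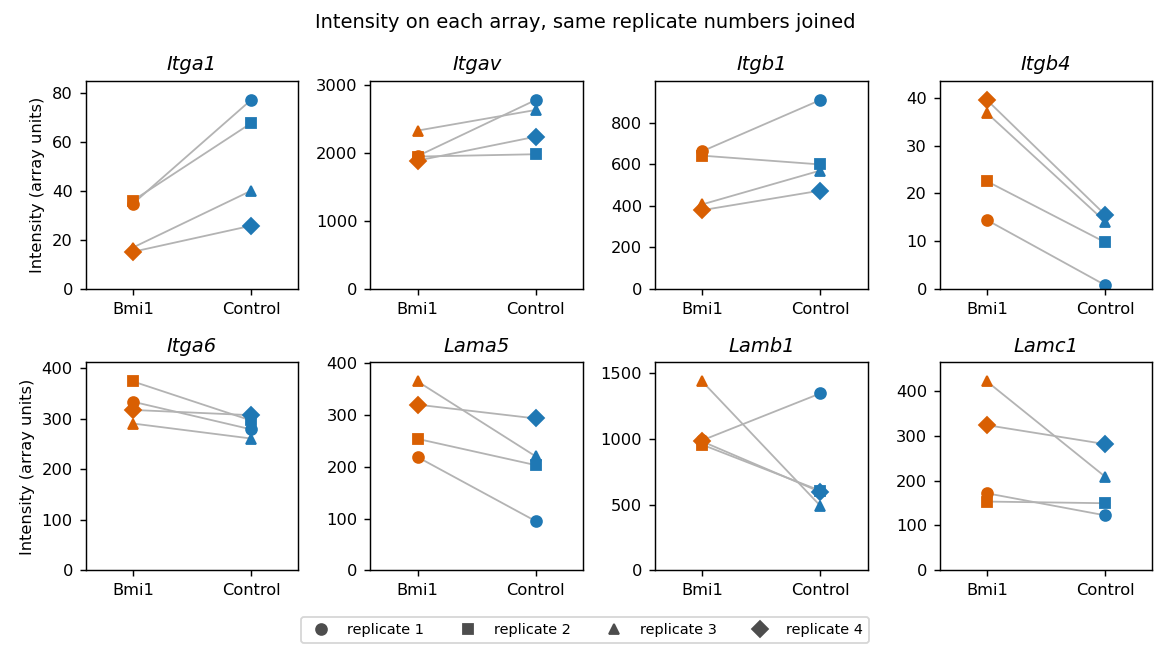
Intensity of 8 genes on each array, Bmi1 left and Control right, with lines joining arrays of the same replicate number and linear axes from 0. Itga1 and Itgav are lower and Itgb4, Itga6 and Lama5 higher in the Bmi1 array of all 4 pairs; for Lamb1, replicate 1 runs against the other three.

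On their brightest probe sets, laminin chains had a positive log2 difference at 4 of 5 tested genes, Lama4 among them, and 0 passed the test with or without the block. For Lama4 and Lamc1 the second probe set had a negative difference, given below. Lama5, the alpha chain of epithelial basement membranes, read 219, 254, 365 and 320 on the Bmi1 arrays and 94.9, 203, 220 and 293 on the Control arrays. It was higher in 4 of 4 pairs by 0.09 to 1.08 with overlapping groups. The difference was 0.51 (SE 0.18 with the block and 0.30 without), with a limma adjusted p of 0.184 in the fit with the block and of 0.808 in the other. Without Control 1 the difference was 0.22, and with probe sets averaged 0.07. A second Lama5 probe set had a difference of 0.44 and was higher in 3 of 4 pairs. The third, near background, went the other way (-0.86, lower in 3 of 4 pairs). It was above background on 0 Bmi1 arrays and 2 Control arrays.

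Lamb1, the beta chain that joins Lama5 and Lamc1 in many basement membranes, read 991, 958, 1440 and 982 on the Bmi1 arrays and 1348, 607, 491 and 597 on the Control arrays. Control 1 was the second highest of the 8 arrays, and the other 3 Control arrays lay below every Bmi1 array. The difference was 0.54 (limma adjusted p = 0.346 in the fit with the block, 0.807 in the other). Without Control 1 it was 0.89 (adjusted p = 0.139), and with the block and without replicate 1 it was 0.91 (adjusted p = 0.0664). A second Lamb1 probe set read 169, 108, 177 and 116 on the Bmi1 arrays and 125, 88.5, 70.1 and 84.5 on the Control arrays, higher in 4 of 4 pairs with the same difference of 0.54. Another, dimmer but above background on all 8 arrays, had a difference of 0.32 and was higher in 2 of 4 pairs. Control 1 held the highest sum of fibroblast and stellate markers (13262) and also the highest Gapdh 3′ to 5′ ratio (3.10). The part of those cells, or of the RNA, in its Lamb1 signal was not tested.

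Lamc1, the gamma chain of most laminins, read 172, 153, 420 and 323 on the Bmi1 arrays and 122, 149, 208 and 281 on the Control arrays (0.35, limma adjusted p = 0.332 with the block). The difference was 0.11 without Bmi1 3, 0.20 without Control 1, 0.02 with array weights and 0.08 with probe sets averaged. Its second probe set read 72.8, 82.0, 112 and 94.8 on the Bmi1 arrays and 170, 127, 63.0 and 83.3 on the Control arrays and had a difference of -0.28, so the 2 probe sets of Lamc1 disagree in direction. Lamb2, the beta chain of vascular and neuromuscular basement membranes, had a negative difference, at 94.8, 155, 210 and 124 on the Bmi1 arrays and 124, 130, 216 and 241 on the Control arrays (-0.35, adjusted p = 0.395 with the block), which was -0.19 without Bmi1 1 and -0.55 with array weights.

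Lama4, the alpha chain of endothelial and mesenchymal laminins, was read differently by its 2 probe sets. The brighter read 34.7, 43.0, 19.8 and 18.9 on the Bmi1 arrays, each above background, and 252, 5.48, 2.12 and 1.70 on the Control arrays, of which only Control 1 was above background. The difference was 0.84 with an SE of 1.12 (limma adjusted p = 0.964). On the other 3 Control arrays it was not above background, so those arrays give only a bound and no difference without Control 1 is given. The second Lama4 probe set read 11.1, 13.1, 0.646 and 7.64 on the Bmi1 arrays and 53.9, 14.05, 1.97 and 9.23 on the Control arrays, above background on 3 arrays of each group. Its difference was -0.72, lower in 4 of 4 pairs, so both the direction and which Control arrays carry signal depend on the probe set. Endothelial cells carry Lama4 too, and their markers summed to 239 to 367 on the Bmi1 arrays and 121 to 241 on the Control arrays, but Pecam1, Tek and Tie1 were at background on all 8 arrays. The part of those cells in the Lama4 values was not tested. Egfl7, the one endothelial marker that was tested, rose with the block (0.95, adjusted p = 0.0205, and 0.289 without) and makes up most of that sum, at 192, 199, 289 and 314 on the Bmi1 arrays and 68.6, 111, 128 and 194 on the Control arrays. Of the other 7 endothelial markers, 6 had negative differences, the lowest being -0.53 for Cdh5.

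Lama2, the muscle chain, was at background on all Bmi1 arrays. It was above background on Control 2 and 4, at 10.9 and 12.1 units, and not on Control 1 and 3. No fold is given, and Lama2 lay under the level filter and was not tested.

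The start regions of 4 of these genes are shown because Itga1, Lamb1 and Lama5 had the largest differences of the 15 genes above background on every array, and Itga2 is the neighbour of Itga1 whose difference was -0.01. Each is the 250 bases before a transcript start in RefSeq (GRCm38.p6), 5′ to 3′ in the direction of the gene. RefSeq's gene span begins further upstream for Lamb1 and Lama5, so 147 and 45 bases of their windows lie inside it. Capitals mark CG dinucleotides, the letters of CpG islands, where Polycomb complexes are known to bind.
Itga1 (chr13:115101965-115102214, minus strand): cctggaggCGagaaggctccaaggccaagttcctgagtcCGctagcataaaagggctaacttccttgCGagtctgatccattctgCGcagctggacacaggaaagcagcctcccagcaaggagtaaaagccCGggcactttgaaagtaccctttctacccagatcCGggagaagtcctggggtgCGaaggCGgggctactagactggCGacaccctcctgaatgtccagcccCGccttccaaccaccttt
Itga2 (chr13:114932101-114932350, minus strand): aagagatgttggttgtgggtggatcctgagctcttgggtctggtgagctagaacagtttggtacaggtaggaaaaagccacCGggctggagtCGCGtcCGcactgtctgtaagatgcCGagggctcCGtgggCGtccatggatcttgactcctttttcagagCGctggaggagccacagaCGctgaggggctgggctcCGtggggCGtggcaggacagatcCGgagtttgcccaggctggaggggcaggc
Lama5 (chr2:180225860-180226109, minus strand): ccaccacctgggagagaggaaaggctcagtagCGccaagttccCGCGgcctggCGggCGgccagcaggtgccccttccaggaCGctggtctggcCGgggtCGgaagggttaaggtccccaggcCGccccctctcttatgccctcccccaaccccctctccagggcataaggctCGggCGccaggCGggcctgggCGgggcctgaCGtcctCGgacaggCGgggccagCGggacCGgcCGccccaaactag
Lamb1 (chr12:31265043-31265292, plus strand): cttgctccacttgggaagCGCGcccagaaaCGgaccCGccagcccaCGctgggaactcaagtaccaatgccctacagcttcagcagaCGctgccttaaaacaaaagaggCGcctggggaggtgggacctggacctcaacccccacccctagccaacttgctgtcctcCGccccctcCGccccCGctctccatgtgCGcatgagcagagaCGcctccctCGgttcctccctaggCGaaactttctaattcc
These windows hold 10, 12, 19 and 14 CG dinucleotides. Over the 25 windows of the 22 genes that could be matched the median was 10, beside 6 over all 32851 windows. A GC box (GGGCGG on either strand) was found before Lama5 and Lamb1 and not before Itga1 or Itga2, and in 9 of the 25 windows (36.0%), beside 32.7% of all. A TATA box (TATAAA on either strand) was in 0 of the 25, beside 12.4% of all, and an AP-1 element (TGACTCA on either strand) in 1, that of Itgax, beside 4.46% of all. These matches describe letters and not sites in use.

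Leukocyte alpha chains and Itgb2 had low signals. On their brightest probe sets Itgal, Itgam and Itgb2 passed background on 1 or fewer arrays of either group, and the other Itgal probe set passed it on 2 Control arrays. The brightest probe set of Itgax passed it on 3 arrays of each group, at up to 13.9 units. That of Itgae passed it on 3 Bmi1 arrays and 1 Control array. Itgb2, the beta chain shared by leukocyte integrins, read 23.5 on Control 2 and at most 2.50 on any other array. The summed signal of 10 leukocyte markers was 238 to 562 on the Bmi1 arrays and 293 to 835 on the Control arrays, with the highest sum on Control 2; its part in the Itgb2 value was not tested. Itgb7, which pairs with Itga4 or Itgae in lymphocytes, read 33.3, 11.6, 13.97 and 33.0 on the Bmi1 arrays and 3.79, 4.28, 37.0 and 31.5 on the Control arrays. Its Control 1 and 2 signals were not above background, so pairs 1 and 2, where the Bmi1 array was higher, give only bounds. In pair 3 the Bmi1 array was lower.

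Itga8, known from stellate and smooth muscle cells, lay under the filter. It read 4.59, 71.1, 4.27 and 6.68 on the Bmi1 arrays and 83.1, 67.2, 8.16 and 1.17 on the Control arrays. The arrays with the high values, Bmi1 2, Control 1 and Control 2, are those with the highest sums of fibroblast and stellate markers, at 6257, 13262 and 7299; on the other 5 arrays the sum was at most 3121. Whether those cells carry the Itga8 signal was not tested. Itgb8, which activates latent TGF-beta with Itgav, read 14.8, 6.71, 7.27 and 2.87 on the Bmi1 arrays and 48.3, 17.8, 7.75 and 2.15 on the Control arrays. The remaining genes under the filter, Itga4, Itga9, Itga10, Itgae, Itgax, Itgb6, Lama1 and Lamc3, had differences between -0.30 (Itgax) and 0.71 (Itga10). None of them was higher or lower in all 4 pairs.

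Several of these genes differed between replicate numbers in both groups. In a model with the group and the split of replicates 3 and 4 against 1 and 2, limma called 6 of the 17 tested genes, against 24.3% of all tested genes. Itga3 (1.03, SE 0.13, adjusted p = 0.00272) and Lamc1 (0.90, adjusted p = 0.00723) were higher in replicates 3 and 4. Itgb3 (-1.26), Itga1 (-1.13), Itgb1 (-0.71) and Itgb5 (-0.52) were lower there. Itga3 for instance read 679 and 815 on Bmi1 3 and 4, 813 and 749 on Control 3 and 4, 403 and 374 on Bmi1 1 and 2, and 299 and 318 on Control 1 and 2, with no overlap between the replicate numbers. The labels do not say what sets replicates 1 and 2 apart. Whether the group difference changed between these splits was tested with an interaction term in limma, which called 0 of the 17 and 0% of all tested genes. At an unadjusted p under 0.05 there were 1 of the 17, Itgb7, and 301 of all.

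**Figure D4:**
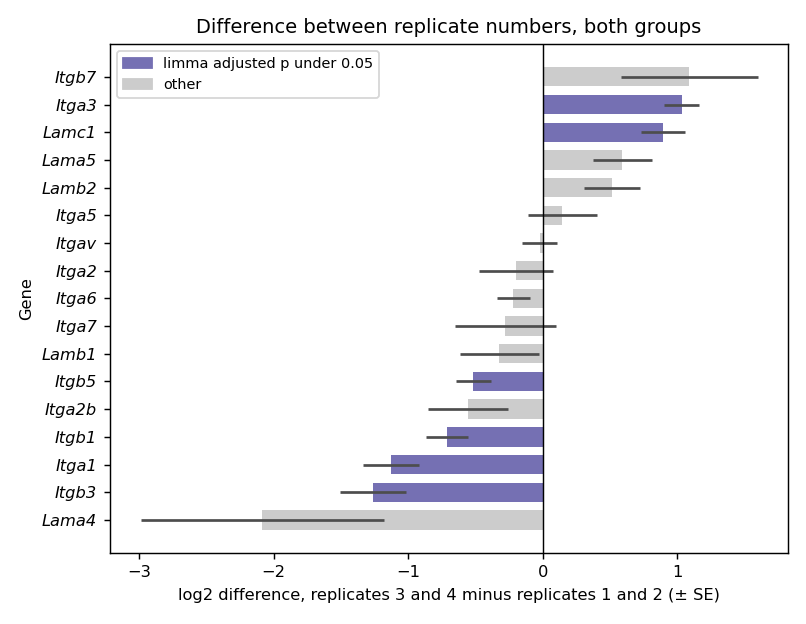
Difference of replicates 3 and 4 minus replicates 1 and 2 for the 17 tested genes, on the log2 scale with the SE, from the model with group and replicate split. Coloured bars are the 6 genes past the adjusted threshold; Itga3 and Lamc1 are higher and Itgb3, Itga1, Itgb1 and Itgb5 lower in replicates 3 and 4.

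Genes that work with integrins and laminins were read from lists, beside the median of -0.03 for all tested genes. Of 12 tested basement membrane partners, 4 were higher and 8 lower, with a median of -0.26. In that list Nid2, a nidogen that links laminin to collagen IV, rose with the block, at 96.0, 104, 192 and 152 on the Bmi1 arrays and 41.5, 51.6, 107 and 101 on the Control arrays (0.80; adjusted p from limma = 0.0315, against 0.551 in the fit that has no block). It was higher in 4 of 4 pairs. Its paralogue Nid1 had a difference of -0.31 (adjusted p = 0.129 with the block). Of 6 other laminin receptors 2 were higher and 4 lower (median -0.11), and Bcam, a receptor for Lama5, had a difference of 0.81 and was higher in 4 of 4 pairs (adjusted p = 0.109 with the block).

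Of 15 integrin ligands other than laminin, 3 were higher and 12 lower, with a median of -0.30. Cdh1, the epithelial cadherin that is also the ligand of Itgae, rose once the block was fitted (0.51; adjusted p from limma = 0.0255, against 0.310 in the fit that has no block), and Vtn, vitronectin made by hepatocytes, had a difference of -0.53 (adjusted p = 0.0695 with the block) without overlap of the groups. Of 19 adaptors and activators 3 were higher and 16 lower (median -0.16), and Tns1, a tensin of focal adhesions, fell with the block (-0.63, adjusted p = 0.0316, and 0.943 without). Of 12 signalling kinases and scaffolds 7 were higher and 5 lower (median 0.04), and 0 passed; Dock1 had a difference of 0.53 (adjusted p = 0.0952 with the block). Without the block 0 genes of these lists passed.

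**Figure D5:**
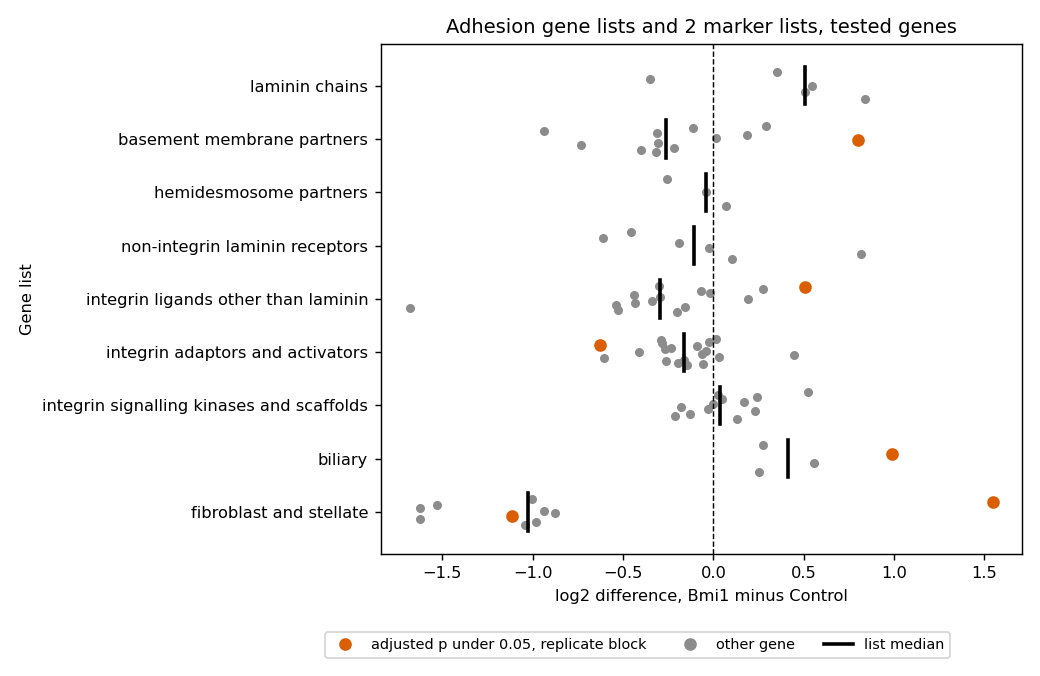
Differences of tested genes in the laminin chains, 6 lists of adhesion genes and 2 lists of cell markers, on the log2 scale, Bmi1 minus Control, with a bar at each median. Orange points passed with the replicate number as a block (Nid2, Cdh1, Tns1, Epcam, Reln and Acta2). The laminin median lies at 0.51 and that of fibroblast and stellate markers at -1.03. By pair the laminin median ran from -0.47 in pair 1 to 0.91 in pair 3. The fibroblast and stellate median was -3.36 in pair 1 and -0.60 to -0.25 in pairs 2 to 4.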

How the data were processed

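RNA of 8 cultures was hybridised to Affymetrix mouse arrays after a 2-cycle amplification, per the labels. The deposited file holds linear intensities for 45101 probe sets per array. Every array has a mean of 100 once the outer 2% of values on both sides are left out, so the authors had scaled them; the sources used here do not name the software. For arrays, their number limits the precision. Gene symbols came from GEO's platform annotation with identifiers matched to RefSeq: 34945 probe sets had 1 symbol, 932 several and 9160 are unnamed here.

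Values were taken as log2(intensity + 3.78), where the added constant is 1/4 of the median over all probe sets and arrays. Each gene was read by its brightest probe set on average, a filter at the 40th percentile of this level left 10916 of 18193 genes to test, and each array was centred on the median of the tested genes. The group difference was fitted in R 4.3.3 by limma 3.58.1 (lmFit, then eBayes allowing a trend with level). Its two-sided p-values were adjusted by Benjamini-Hochberg over all tested genes, with a threshold of 0.05. The fit was tested on simulated data. Other centring, pseudocounts, filters, probe set rules, weights and arrays left out were tried as alternatives. Where a gene was at background on all arrays of a group, its log2 difference is not read as a fold.

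The replicate numbers were taken as pairs, from the series' independent experiments and from the data. Deviations from the group means correlated at 0.49 to 0.68 between arrays of the same number, and each of the 8 arrays correlated best with its own number. Between arrays of different numbers the correlation reached 0.48, for Bmi1 2 with Control 1, beside 0.49 for Bmi1 2 with Control 2. The main model has no block; a value from the fit with the block stands beside a result whose call it alters. Nothing in the labels says more of how far the cultures were independent, so p-values measure the spread between these arrays.

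The genes and lists were chosen with earlier results of these data known. Values on every array are given for Itga6, Itgb1, Itgb4, Lamb3, for genes called in either model and for 6 more of the smallest p; of each list, up to 4 genes called, or else the 2 of smallest p, could be named. Lama4, Itga8, Itga2, Itga3, Itgb2, Itgb7, Itgb8, Nid1, Vtn, Cdh5, Cftr and Col17a1, and the probe sets other than the brightest, were named after their values were seen. Promoter sequences are from RefSeq, GRCm38.p6.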

Additional observations from a re-analysis of the deposited data

Results flagged for a closer look

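Of 68 groups of 4 arrays examined over the 34 genes, 3 held an array far from the others at the 95% critical value of Dixon's test. About 1 group in 20 passes it by chance, which comes to 3.4 of 68. Gaps below are fractions of the range on the log2 scale, while signals are in intensity units. Itga8 was high on Bmi1 2, with a gap to the next array of 0.879 of the range of the Bmi1 arrays (71.1 intensity units there). Itgb2 was high on Control 2, with a gap of 0.952 of the range of the Control arrays (23.5 units). Lama4 was high on Control 1, with a gap of 0.85 of the range of the Control arrays (252 units).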

How the results depend on the processing

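Over 24 other settings the integrin and laminin genes gave 0 calls by limma in 23 and 1 call, Itga1, with the replicate block. Over all genes the main model called 18. The replicate block called 363, a block of replicates 1 and 2 against 3 and 4 called 198, no centring 28, the whole median as pseudocount 30, array weights 37, quantile normalization 7, every probe set 9 and every probe set without a filter 5. Within replicates 1 and 2, within replicates 3 and 4, and with a filter at the 60th percentile it called 0. Leaving out 1 array gave 0 to 20. The median difference of the genes was -0.16 within replicates 1 and 2, against -0.01, and -0.11 to 0.05 with 1 array left out; it was 0.12 with centring on all probe sets and 0.11 with quantile normalization. With the block, the count of integrin and laminin genes called went to 0 in several settings. These were no centring, centring on all probe sets, quantile normalization, no level filter, and every probe set without a filter. It was also 0 in 4 of 4 fits that left out a replicate number (0 to 0). With the 60th percentile filter it was 0 too, but that filter removed Itga1, which was not tested there. With probe sets averaged Itga1 was not tested either, and the gene called was Itgb4 (limma adjusted p = 0.0302). All genes called with the block were 171 with the 60th percentile filter, 183 without the intensity trend, and 94 to 207 with a replicate number left out (187 without replicate 1 and 140 without replicate 2). Apart from the removal of Itga1 by a filter, the causes were not tested. Itga1, Itgav, Itgb1, Itga5, Lama5, Lamb1, Lamc1, Lamb2 and Itga6 kept their direction in all settings that tested them; with the block Itga1 stayed past the threshold in 5 of 14 other settings (adjusted p 0.0342 to 0.168). Settings combined with the block other than leaving out a replicate number, and every probe set without a filter, were chosen after seeing the data. Signals near background limit Itgb4, Itgb7, Lama4, Lamb3, Lama2, Lama3 and the leukocyte chains.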
